A study of Micropterus salmoides with 18 samples.

Results

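Testis-type gonads of the largemouth bass, Micropterus salmoides, a freshwater predator raised for food, were compared after 28 days in tanks held at 20 °C (the libraries labelled NC-M) and at the start of the trial, day 0 (the libraries labelled IC-F). Both groups held 3 RNA sequencing libraries, so 6 of the 18 libraries of the series were compared. They were chosen by 3 genes: odf3b, an outer dense fibre gene of the sperm tail, and dmrt1, a transcription factor gene of the testis, were high in all 6 libraries, and zar1, a maternal-effect gene of the oocyte, was low. The whole trial used 216 fish in 12 tanks of 18, with males and females kept apart and 3 tanks per group. It was run outside the breeding season, and further fish were warmed to 28 °C within 2 h. Neither of the compared groups belongs to the fish warmed to 28 °C. The labels give no temperature for day 0, so any change of temperature since then cannot be told apart from time. They give no age or strain of the fish.

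A testis holds germ cells of successive stages beside somatic cells. Spermatogonia multiply, spermatocytes pair and recombine their chromosomes in meiotic prophase and then divide, and the resulting spermatids grow a flagellum and become sperm. Sertoli cells enclose and nourish the germ cells, Leydig cells make androgens, and in seasonally breeding fish the share of each germ cell stage in the testis changes through the year, as sperm are made, released and cleared.

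The letters M and F of the library names are read as male and female, which the labels do not spell out, and the gonad genes went against the letter F of the IC-F libraries. Values of 3 libraries are given in the order of their numbers, 1 to 3. The genes that chose the libraries are given as a description. Odf3b stood at 439, 309 and 461 FPKM in NC-M, against 1420.3, 1401 and 1388 FPKM in IC-F. Dmrt1 stood at 63.0, 54.2 and 58.3 FPKM in NC-M, against 46.2, 41.7 and 47.1 FPKM in IC-F. Zar1 stood at 1.68, 2.54 and 1.5 FPKM in NC-M, against 1.62, 4.04 and 2.1 FPKM in IC-F, and at 1209, 1064 and 1081 FPKM in the ovary-type libraries labelled NC-F. Among further testis markers, insl3, the relaxin-like hormone gene of Leydig cells, lay between 37.6 and 66.5 FPKM in all 6 libraries, and the ovary marker foxl2a, a transcription factor gene of the follicle, did not exceed 0.19 FPKM. The groups are therefore called by their labels throughout. Their prefixes, which give the day and, except at day 0, the temperature, could not be checked by any gene.

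FPKM (fragments per kilobase of gene, scaled to the mapped fragments of each library) summed to between 818306 and 984371 per library, and 20308 to 21638 genes reached 1 FPKM. The depth is unknown, because FPKM are not counts. Across the 22791 genes tested, log2 values of the 3 IC-F libraries correlated at 0.974 to 0.976. Those of NC-M 1 and NC-M 2 correlated at 0.916. NC-M 3 stood apart from both and correlated at 0.825 and 0.831 with them, against 0.880 to 0.886 with the IC-F libraries, whereas NC-M 1 and NC-M 2 correlated with IC-F at 0.763 to 0.777. NC-M 3 was already known to keep more sperm transcripts when the libraries were chosen, so its values are shown one by one with no test of the library itself. Whether each library of a group is its own fish or tank is not labelled. P-values therefore reflect only how these libraries vary, a spread that may be technical.

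Many genes differed between NC-M and IC-F. With limma on log2(FPKM + 1) and a Benjamini-Hochberg adjusted p under 0.05, the rule for every call below, 3736 genes rose (16.4% of those tested) and 4133 fell (18.1%), 34.5% in all. The median change over all genes tested was log2 0.13. The groups did not overlap in 27% of the genes tested with NC-M higher, and in 23.5% with NC-M lower. Counts of gene lists below are to be read against these shares. Median-of-ratios scaling lowered the median of all genes by 0.12 and gave 2793 rises (12.3%) and 4891 falls (21.5%), 33.8% in all, so that 36.3% of the called genes were higher, against 47.5%. Without NC-M 3 there were 6155 rises (27.5%) and 5994 falls (26.8%), 54.2% in all. Without any 1 of the other libraries there were 1582 to 3101 rises and 2151 to 3100 falls among 22201 to 22360 genes tested. Calls were thus lost over all genes in those fits, and list counts without 1 library are to be read against this. Of the 4133 genes that fell with all libraries kept, NC-M 3 had the highest value of the 3 NC-M libraries in 80.0%, against 43.4% of all genes tested. The 46 gene lists described here held 1512 genes of the table, of which 1281 passed the filter of 1 FPKM in at least 3 libraries. The counts of tested list members below leave out 37 that reached the filter only with the libraries of the group in which they were higher (12 of them were called), and the genes that chose the libraries, which leaves 1241.

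**Figure D1:**
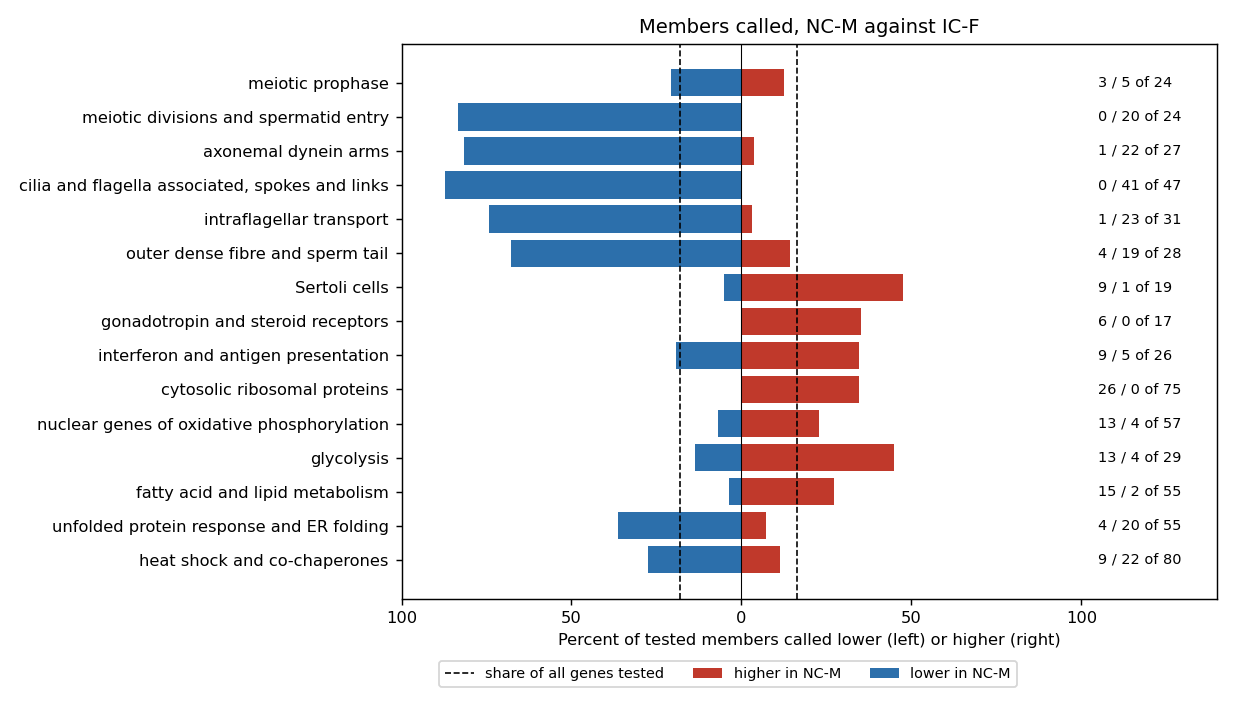
Percent of the tested members of 15 gene lists that limma called higher (red, to the right) or lower (blue, to the left) in NC-M than in IC-F, with the counts at the right as higher / lower of tested. Dashed lines mark the shares of all genes tested, 16.4% higher and 18.1% lower. The 5 lists of meiotic divisions and flagellum extend far to the left. The Sertoli and glycolysis lists extend furthest to the right, followed by the receptor, interferon and ribosomal lists.

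Flagellum genes fell in large numbers. The axoneme, the moving core of the sperm tail, is driven by dynein arms. Of the 28 genes for axonemal dynein arms and their assembly in the table, 27 were tested, of which 22 fell and 1 rose, with a median change of log2 −1.76. Odad3, which docks the outer arms to the axoneme, stood at 7.15, 7.57 and 26.7 FPKM in NC-M, against 60.6, 59.0 and 62.5 FPKM in IC-F (limma log2 −2.31 ± 0.42 SE, adjusted p = 0.00626). The dynein heavy chain gene dnah9l stood at 4.28, 6.21 and 19.2 FPKM in NC-M, against 41.7, 46.4 and 47.9 FPKM in IC-F (limma log2 −2.34 ± 0.43 SE, adjusted p = 0.00654). In both genes NC-M 1 and NC-M 2 were far below IC-F, and NC-M 3 lay between. In bulk tissue, fewer cells of a type and less RNA per cell cannot be told apart. Spag1a, an assembly factor of the dynein arms, was the member that rose, at 5.59, 6.93 and 5.26 FPKM in NC-M, against 1.70, 2.01 and 2.06 FPKM in IC-F (limma log2 1.24 ± 0.15 SE, adjusted p = 0.00197). The count of falls was 8 to 13 without any 1 of the IC-F libraries, NC-M 1 or NC-M 2, and 24 without NC-M 3.

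The genes for cilia- and flagella-associated proteins, radial spokes and nexin links, which couple the microtubule doublets, showed the same split. All 47 members in the table were tested, of which 41 fell and 0 rose (median log2 −2.05). Cfap206, a radial spoke adaptor gene, stood at 30.6, 33.9 and 58.6 FPKM in NC-M, against 143, 147 and 154 FPKM in IC-F (limma log2 −1.89 ± 0.23 SE, adjusted p = 0.00179). Other members were alike in the 3 NC-M libraries. Cfap36 stood at 28.1, 25.8 and 36.0 FPKM in NC-M, against 112, 115 and 113 FPKM in IC-F (limma log2 −1.90 ± 0.16 SE, adjusted p = 0.00061). The ciliary gene cfap410 stood at 12.9, 12.8 and 12.5 FPKM in NC-M, against 30, 28.3 and 29.7 FPKM in IC-F (limma log2 −1.14 ± 0.11 SE, adjusted p = 0.00083). The median member lay at log2(FPKM + 1) 3.51, 3.52 and 5.59 in NC-M 1, 2 and 3, against 6.32, 6.29 and 6.36 in IC-F 1, 2 and 3. NC-M 1, NC-M 2 and NC-M 3 were below all 3 IC-F libraries in 46, 46 and 43 of the 47 genes, against 41.7%, 37.6% and 38% of all genes tested. The count of falls was 22 to 27 without any 1 of the IC-F libraries, NC-M 1 or NC-M 2, and 45 without NC-M 3.

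Intraflagellar transport carries flagellar parts along the growing tail, and the BBSome is its cargo adaptor. Of the 31 genes of both complexes, all tested, 23 fell and 1, the kinesin gene kif3a, rose (median log2 −1.82). The transport gene ift80 stood at 12.1, 14.2 and 22.8 FPKM in NC-M, against 61.6, 55.6 and 58.8 FPKM in IC-F (limma log2 −1.83 ± 0.22 SE, adjusted p = 0.00192). The BBSome gene bbs2 stood at 5.87, 5.37 and 11.5 FPKM in NC-M, against 41.3, 47.2 and 44.5 FPKM in IC-F (limma log2 −2.47 ± 0.34 SE, adjusted p = 0.00265). Bbs9 stood at 3.89, 4.32 and 12.5 FPKM in NC-M, against 26.8, 27.1 and 26.4 FPKM in IC-F (limma log2 −1.98 ± 0.34 SE, adjusted p = 0.00549). NC-M 3, already known to keep more sperm transcripts, was the highest NC-M library in 30 of the 31 genes, against 43.4% of all genes tested. The count of falls was 11 to 13 without any 1 of the IC-F libraries, NC-M 1 or NC-M 2, and 30 without NC-M 3. After median-of-ratios scaling 0 higher and 26 lower were called, so that the call of kif3a ended, as it did without any 1 library other than NC-M 3.

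Of the 32 genes for outer dense fibres and other parts of the sperm tail, 28 were tested, of which 19 fell and 4 rose (median log2 −1.58). Tex36, a testis-expressed gene, was nearly equal in the 3 NC-M libraries, at 17.6, 17.8 and 17.8 FPKM in NC-M, against 52.7, 54.6 and 52.1 FPKM in IC-F (limma log2 −1.53 ± 0.16 SE, adjusted p = 0.00126). Sept12, a septin that in mammals forms the ring of the sperm tail, rose and stood at 35.3, 38.4 and 30.3 FPKM in NC-M, against 11.8, 8.40 and 10.6 FPKM in IC-F (limma log2 1.67 ± 0.23 SE, adjusted p = 0.00288). The other rises were sept4b, the voltage-gated proton channel gene hvcn1 and the sperm glycolysis gene gapdhs, of which hvcn1 was lost without IC-F 3 and the other two without any 1 library other than NC-M 3. The count of falls was 11 to 14 without any 1 of the IC-F libraries, NC-M 1 or NC-M 2, and 21 without NC-M 3. The count of rises was 1 to 3 and 4 in the same fits. Of the 3 genes for sperm and egg fusion and the acrosome region, all tested, dcst2 and tmem81 fell and atp8b3, a phospholipid flippase gene, rose. Dcst2, a sperm membrane gene needed for fertilization in fish and mice, stood at 24.7, 12.2 and 31.6 FPKM in NC-M, against 59.5, 58.0 and 54.4 FPKM in IC-F (limma log2 −1.39 ± 0.30 SE, adjusted p = 0.0113). Tmem81, which in fish and mammals is part of the sperm complex that meets the egg, stood at 9.30, 28.1 and 32.9 FPKM in NC-M, against 81.5, 73.0 and 80.4 FPKM in IC-F (limma log2 −1.87 ± 0.42 SE, adjusted p = 0.0121). Atp8b3 stood at 75.9, 69.0 and 91.0 FPKM in NC-M, against 43.6, 36.3 and 34.4 FPKM in IC-F (limma log2 1.03 ± 0.23 SE, adjusted p = 0.0132), a result lost when IC-F 2 or IC-F 3 was left out.

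Genes of the meiotic divisions and of entry into the spermatid stage fell together with the flagellum genes. Of the 26 in the table, 24 were tested, of which 20 fell and none was called higher by limma (median log2 −2.13). Ccnb2, a cyclin of cell division, stood at 16.1, 11.0 and 199 FPKM in NC-M, against 501, 529.8 and 528 FPKM in IC-F (limma log2 −3.92 ± 0.91 SE, adjusted p = 0.014). Ccna1, the cyclin of male meiosis in mammals, stood at 1.88, 0.59 and 24.2 FPKM in NC-M, against 45.9, 50.4 and 52.0 FPKM in IC-F (limma log2 −3.37 ± 0.85 SE, adjusted p = 0.0186). The spindle kinase gene aurka stood at 5.83, 8.45 and 78.9 FPKM in NC-M, against 115, 121 and 114 FPKM in IC-F (limma log2 −2.77 ± 0.79 SE, adjusted p = 0.0277). In these genes NC-M 3 lay between IC-F and the other NC-M libraries, which were far lower. The calls of ccna1 and aurka ended without any 1 library other than NC-M 3.

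The phosphatase gene cdc25b, which releases cells into division, stood at 8.93, 11.5 and 29.2 FPKM in NC-M, against 80.0, 76.1 and 84.4 FPKM in IC-F (limma log2 −2.39 ± 0.37 SE, adjusted p = 0.00392). Rfx2 and rfx3, transcription factor genes that switch on ciliary genes, both fell. Rfx2 stood at 11.4, 13.6 and 47.3 FPKM in NC-M, against 75.8, 75.7 and 78.0 FPKM in IC-F (limma log2 −1.91 ± 0.44 SE, adjusted p = 0.0139). Rfx3 stood at 0.97, 0.95 and 2.82 FPKM in NC-M, against 7.45, 7.46 and 8.25 FPKM in IC-F (limma log2 −1.83 ± 0.26 SE, adjusted p = 0.0031). Spata6, needed in mice to link the sperm head and tail, stood at 10.7, 10.8 and 48.2 FPKM in NC-M, against 127, 119 and 122 FPKM in IC-F (limma log2 −2.71 ± 0.50 SE, adjusted p = 0.00648). The spermatogenesis-associated gene spata7 stood at 6.32, 7.64 and 17.3 FPKM in NC-M, against 35.8, 33.9 and 35.9 FPKM in IC-F (limma log2 −1.78 ± 0.30 SE, adjusted p = 0.00502). The related gene rfx4, not counted because it reached the filter only with the NC-M libraries, stood at 2.11, 1.73 and 2.12 FPKM in NC-M, against 0.85, 0.48 and 0.42 FPKM in IC-F. Cdk1, the kinase partner of the cyclins, did not pass the test, at 62.5, 75.9 and 398 FPKM in NC-M, against 426, 431 and 419 FPKM in IC-F (limma log2 −1.77 ± 0.60 SE, adjusted p = 0.0517), and passed it without NC-M 3 (limma log2 −2.61 ± 0.15 SE, adjusted p = 1.25e-05). NC-M 3, already known to keep more sperm transcripts, was the highest NC-M library in all 24 genes, against 43.4% of all genes tested. The count of falls was 10 to 14 without any 1 of the IC-F libraries, NC-M 1 or NC-M 2, and 22 without NC-M 3.

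**Figure D2:**
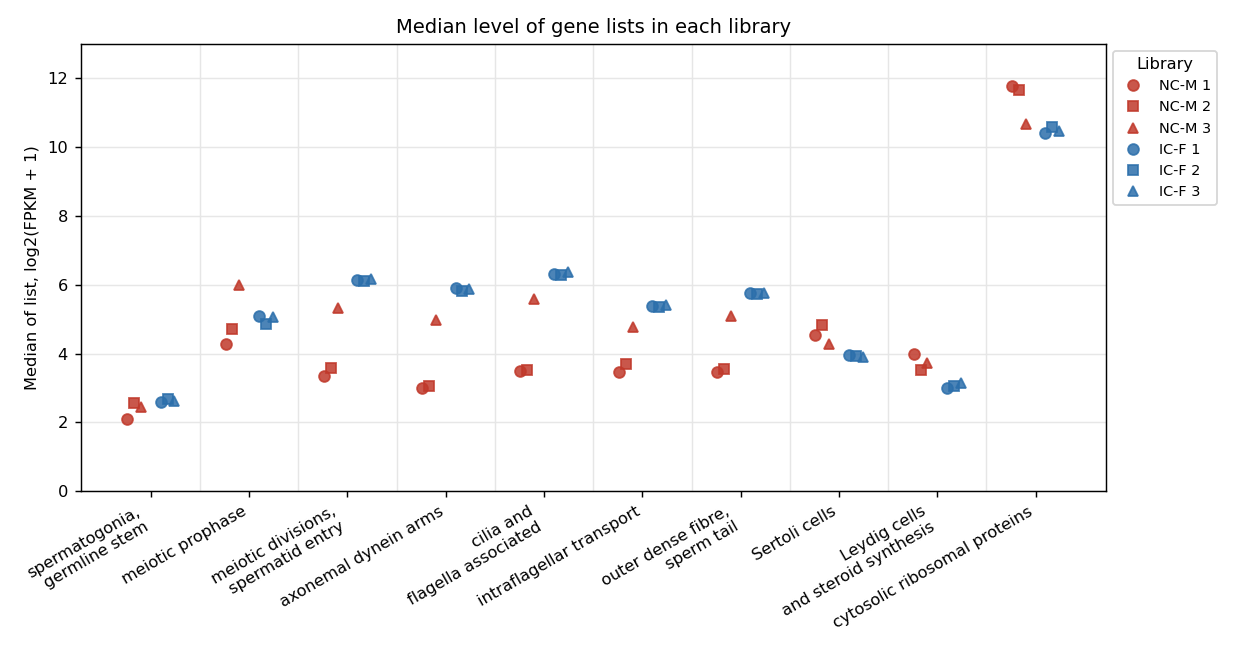
Median level of the tested members of 10 gene lists in each library, on the log2(FPKM + 1) scale, with NC-M in red and IC-F in blue. For the cilia- and flagella-associated genes NC-M 1 and NC-M 2 lie at 3.51 and 3.52, NC-M 3 at 5.59 and the IC-F libraries at 6.29 to 6.36, whereas for meiotic prophase NC-M 3, at 6.01, lies above all other libraries.

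Genes of meiotic prophase, the earlier stage in which chromosomes pair, did not move as a group. Of 25 listed genes, 24 were tested, of which 3 rose, 5 fell and 16 were not called (median log2 −0.20). The NC-M libraries went opposite ways. The median member lay at log2(FPKM + 1) 4.28, 4.71 and 6.01 in NC-M 1, 2 and 3, against 5.09, 4.87 and 5.05 in IC-F 1, 2 and 3. NC-M 1, NC-M 2 and NC-M 3 were above all 3 IC-F libraries in 3, 8 and 19 of the 24 genes, against 46.3%, 50.7% and 45.2% of all genes tested. In 8 genes NC-M 3 was above all 3 IC-F libraries while both other NC-M libraries were below all 3. The share of all genes tested with this pattern was not counted, so these 8 cannot be called unusual. Without NC-M 3 the counts were 3 higher and 12 lower of 24 (median log2 −0.65), and without any 1 of the other libraries 2 to 5 rose and 2 to 4 fell.

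Genes of the synaptonemal complex, the zipper between paired chromosomes, and of recombination differed among themselves. Sycp3, of the lateral elements of that complex, stood at 136, 226 and 414 FPKM in NC-M, against 183, 169.8 and 174 FPKM in IC-F, and was not called (limma log2 0.41 ± 0.34 SE, adjusted p = 0.375). The strand exchange gene dmc1 stood at 21.7, 30.4 and 143 FPKM in NC-M, against 63.5, 50.5 and 60.5 FPKM in IC-F, and was not called (limma log2 −0.33 ± 0.59 SE, adjusted p = 0.681). Meiob, which binds DNA during recombination, stood at 52.6, 75.0 and 192 FPKM in NC-M, against 60.2, 49.1 and 52.4 FPKM in IC-F, and was not called (limma log2 0.75 ± 0.40 SE, adjusted p = 0.177). In all 3 genes NC-M 3 was the highest of the 6 libraries compared. The other NC-M libraries lay below IC-F in dmc1, within or above it in meiob, and on both sides of it in sycp3.

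Sycp1 and syce2, of the transverse filaments and the central element, fell. Sycp1 stood at 8.36, 11.05 and 72.7 FPKM in NC-M, against 126, 106 and 129 FPKM in IC-F (limma log2 −2.58 ± 0.66 SE, adjusted p = 0.0197). Syce2 stood at 10.1, 14.5 and 70.8 FPKM in NC-M, against 137, 119 and 127 FPKM in IC-F (limma log2 −2.47 ± 0.59 SE, adjusted p = 0.0152). The crossover gene mlh3 fell (limma log2 −1.80 ± 0.35 SE, adjusted p = 0.00742), as did mei4, a gene for making the DNA breaks of recombination (limma log2 −1.21 ± 0.29 SE, adjusted p = 0.0152). Terb2, which in mice fastens telomeres to the nuclear envelope, stood at 5.10, 5.32 and 11.7 FPKM in NC-M, against 25.1, 24.3 and 25.0 FPKM in IC-F (limma log2 −1.71 ± 0.27 SE, adjusted p = 0.00394). Of these falls, that of sycp1 ended without any 1 library other than NC-M 3, that of syce2 without IC-F 1, IC-F 3 or NC-M 2, and that of mei4 without any 1 of the IC-F libraries or NC-M 2. The rises were those of msh4, cpeb1b and sun1, the last of which was lost without any 1 library other than NC-M 3. Msh4, which steadies crossover intermediates, stood at 23.6, 28.4 and 19.3 FPKM in NC-M, against 12.5, 10.2 and 9.86 FPKM in IC-F (limma log2 1.05 ± 0.19 SE, adjusted p = 0.00566). Cpeb1b, a regulator of mRNA tails, stood at 33.4, 36.4 and 20.3 FPKM in NC-M, against 13.3, 11.2 and 12.9 FPKM in IC-F (limma log2 1.17 ± 0.22 SE, adjusted p = 0.00703).

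**Figure D3:**
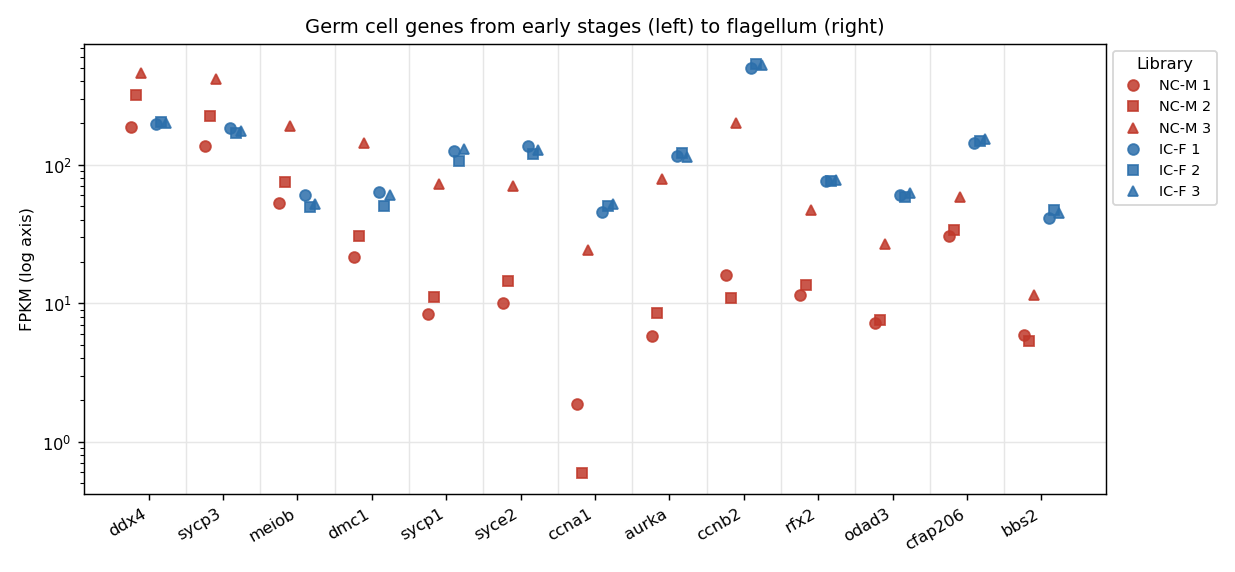
FPKM (log axis) of 13 germ cell genes in each library, with NC-M in red and IC-F in blue. They run from germ cell and meiotic genes at the left to flagellum genes at the right. The genes are examples chosen after their values were seen, and the order among the prophase genes sycp3 to syce2 is not one of stage. NC-M 3 is the highest of the 6 libraries shown for ddx4, sycp3, meiob and dmc1 and lies below the IC-F libraries from sycp1 onwards. Over the whole lists, NC-M 3 was below all 3 IC-F libraries in 8 and above them in 9 of 18 spermatogonia and stem cell genes. It was below in 5 and above in 19 of 24 prophase genes, against 38% and 45.2% of all genes tested. NC-M 1 and NC-M 2 reach 1.88 and 0.59 FPKM for ccna1.

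Spermatogonia and germline stem cells are the dividing cells from which the later stages arise. Of 25 listed genes, 18 were tested, of which none was called higher by limma and 4 fell (median log2 0.02). The falls were those of zbtb16b, gfra1a, kitb and tdrd6. Zbtb16a and gfra1b, relatives of the first 2, went the other way. Their means were higher in NC-M, and they are not counted because they reached the filter only with the NC-M libraries. Zbtb16b, related to the spermatogonial factor PLZF, stood at 0.85, 1.25 and 2.44 FPKM in NC-M, against 8.40, 7.13 and 7.69 FPKM in IC-F (limma log2 −1.85 ± 0.26 SE, adjusted p = 0.00288). Gfra1a, a co-receptor for the niche factor GDNF, stood at 2.03, 0.66 and 1.38 FPKM in NC-M, against 4.39, 4.66 and 4.30 FPKM in IC-F (limma log2 −1.25 ± 0.22 SE, adjusted p = 0.0059). Kitb, a receptor gene, stood at 0.61, 0.66 and 0.97 FPKM in NC-M, against 2.2, 1.86 and 2.27 FPKM in IC-F (limma log2 −0.84 ± 0.18 SE, adjusted p = 0.0107), and was not called without IC-F 3. Ddx4 (vasa), an RNA helicase gene of germ cells at all early stages, was not called, at 188, 320.0 and 463 FPKM in NC-M, against 196, 204 and 201 FPKM in IC-F (limma log2 0.60 ± 0.35 SE, adjusted p = 0.215). The germ cell gene dazl was not called, at 53.6, 67.3 and 90.7 FPKM in NC-M, against 62.1, 65.0 and 64.4 FPKM in IC-F (limma log2 0.11 ± 0.20 SE, adjusted p = 0.697). In ddx4 and dazl NC-M 3 was again the highest of the 6 libraries compared. Nanos2, which keeps mammalian and fish spermatogonia undifferentiated, was low and not called, at 2.16, 2.11 and 0.44 FPKM in NC-M, against 0.76, 1.29 and 0.41 FPKM in IC-F (limma log2 0.44 ± 0.37 SE, adjusted p = 0.385). Without NC-M 3, 2 higher and 6 lower of 18 (median log2 −0.11) were called.

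The piRNA pathway silences transposons in germ cells. All 21 of its genes in the table were tested, of which 2 rose and 6 fell (median log2 −0.10). Tdrd6, a germ granule gene counted in both lists, stood at 29.5, 41.7 and 102 FPKM in NC-M, against 181, 168 and 179 FPKM in IC-F (limma log2 −1.79 ± 0.38 SE, adjusted p = 0.0103). The nuclease gene pld6 stood at 41.1, 51.9 and 79.0 FPKM in NC-M, against 110.2, 104.61 and 104 FPKM in IC-F (limma log2 −0.93 ± 0.22 SE, adjusted p = 0.0157). The piRNA methylase gene henmt1 stood at 8.44, 13.1 and 21.6 FPKM in NC-M, against 35.6, 37.7 and 34.3 FPKM in IC-F (limma log2 −1.35 ± 0.34 SE, adjusted p = 0.0177). The core gene piwil1 was not called, at 100.2, 124 and 227 FPKM in NC-M, against 130.1, 140.1 and 132 FPKM in IC-F (limma log2 0.08 ± 0.27 SE, adjusted p = 0.848). After median-of-ratios scaling 0 higher and 6 lower were called. The calls of pld6 and henmt1 ended without any 1 of the IC-F libraries or NC-M 2, and the count of falls was 1 to 4 without any 1 library other than NC-M 3.

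Of 53 tested chromatin and histone variant genes (of 55), 13 rose and 13 fell (median log2 0.13). Suz12b, of the repressive Polycomb complex PRC2, stood at 53.2, 58.3 and 37.6 FPKM in NC-M, against 18.8, 14.8 and 16.5 FPKM in IC-F (limma log2 1.501 ± 0.18 SE, adjusted p = 0.00189). The demethylase gene kdm6bb, which removes the mark of that complex, stood at 42.2, 35.8 and 28.2 FPKM in NC-M, against 12.9, 8.68 and 10.4 FPKM in IC-F (limma log2 1.64 ± 0.22 SE, adjusted p = 0.00254). Kdm8, of the same enzyme family, stood at 16.2, 15.2 and 21.8 FPKM in NC-M, against 44.1, 49.5 and 50.7 FPKM in IC-F (limma log2 −1.40 ± 0.15 SE, adjusted p = 0.00136). These 3 had the smallest p of the list, and their groups did not overlap, as in 27% (higher) and 23.5% (lower) of all genes tested. Without any 1 of the IC-F libraries 6 falls were called in this list.

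Sertoli cell genes rose more often than they fell. Of 20 listed genes, 19 were tested, of which 9 rose and 1 fell (median log2 0.73). Wt1b, a transcription factor gene of the gonadal soma, stood at 87.3, 119 and 32.2 FPKM in NC-M, against 15.1, 14.6 and 14.3 FPKM in IC-F (limma log2 2.17 ± 0.41 SE, adjusted p = 0.00726). Its partner gata4 stood at 39.8, 34.0 and 18.4 FPKM in NC-M, against 10.8, 12.3 and 11.7 FPKM in IC-F (limma log2 1.26 ± 0.26 SE, adjusted p = 0.0099). Bmpr1bb, a receptor for bone morphogenetic proteins, stood at 65.8, 59.5 and 22.2 FPKM in NC-M, against 14.9, 14.2 and 15.1 FPKM in IC-F (limma log2 1.53 ± 0.37 SE, adjusted p = 0.0155). The protease inhibitor gene cst3 stood at 4812, 6456 and 3138 FPKM in NC-M, against 2319, 2272 and 2319 FPKM in IC-F (limma log2 1.00 ± 0.27 SE, adjusted p = 0.0241). In these 4 genes NC-M 3 was the lowest NC-M library and still above all 3 IC-F libraries, which all 3 NC-M libraries were in 27% of all genes tested. The calls of bmpr1bb and cst3 ended without any 1 of the IC-F libraries or NC-M 2, and that of cst3 also without NC-M 1. Wt1a, by contrast, was even across NC-M, at 35.2, 36.7 and 37.1 FPKM in NC-M, against 19.9, 17.3 and 17.5 FPKM in IC-F (limma log2 0.96 ± 0.23 SE, adjusted p = 0.0146), and was not called without IC-F 2 or IC-F 3.

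Tjp1b, a scaffold of the tight junctions that seal the Sertoli cell barrier, was the member that fell, at 15.6, 15.8 and 23.5 FPKM in NC-M, against 59.0, 64.6 and 62.7 FPKM in IC-F (limma log2 −1.73 ± 0.17 SE, adjusted p = 0.000877). Amh, the anti-Müllerian hormone gene of Sertoli cells, was not called, at 22.2, 59.7 and 13.5 FPKM in NC-M, against 22.6, 23.0 and 25.1 FPKM in IC-F (limma log2 0.15 ± 0.44 SE, adjusted p = 0.803), and its NC-M libraries lay on both sides of IC-F. Sox9a was not called, at 3.74, 4.55 and 0.83 FPKM in NC-M, against 0.99, 0.74 and 0.48 FPKM in IC-F (limma log2 1.08 ± 0.40 SE, adjusted p = 0.0672), and passed the test without NC-M 3 (limma log2 1.57 ± 0.22 SE, adjusted p = 0.000862). NC-M 3 was the lowest NC-M library in 15 of the 19 genes, against 38.0% of all genes tested. The count of rises was 2 to 7 without any 1 of the IC-F libraries, NC-M 1 or NC-M 2, and 13 without NC-M 3. Flagellum genes were low in the same libraries in which Sertoli genes were high, and their part in this result was not tested.

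Among 17 tested genes of gonadal sex determination (of 32 in the table), 5 rose and 1 fell (median log2 0.73). Wt1a, wt1b and gata4 are among these rises. Dmrt2a, a relative of dmrt1, stood at 264, 290.4 and 132 FPKM in NC-M, against 78.0, 57.7 and 67.4 FPKM in IC-F (limma log2 1.67 ± 0.28 SE, adjusted p = 0.00504). Sox3, related to the male-determining gene of some fish and mammals, stood at 2.18, 3.73 and 2.30 FPKM in NC-M, against 0.82, 0.80 and 0.45 FPKM in IC-F (limma log2 1.13 ± 0.24 SE, adjusted p = 0.0104). Without NC-M 3 the count of rises was 11.

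Receptors for pituitary hormones and sex steroids rose in part. Of 25 listed genes, 17 were tested, of which 6 rose and 0 fell (median log2 0.21). Fshr, the receptor for follicle-stimulating hormone on Sertoli cells, stood at 37.6, 27.7 and 20.2 FPKM in NC-M, against 12.7, 13.1 and 12.5 FPKM in IC-F (limma log2 1.06 ± 0.25 SE, adjusted p = 0.0143), a call that ended without IC-F 3. Lhcgr, the receptor for luteinizing hormone, stood at 8.75, 19.1 and 7.83 FPKM in NC-M, against 4.27, 3.52 and 3.29 FPKM in IC-F (limma log2 1.36 ± 0.30 SE, adjusted p = 0.0112). Pgr, the nuclear progestin receptor, stood at 103, 134 and 71.8 FPKM in NC-M, against 37.6, 30.6 and 34.9 FPKM in IC-F (limma log2 1.52 ± 0.25 SE, adjusted p = 0.00433). The prolactin receptor gene prlra stood at 27.9, 23.4 and 12.1 FPKM in NC-M, against 8.73, 7.89 and 9.16 FPKM in IC-F (limma log2 1.13 ± 0.28 SE, adjusted p = 0.0165). All 3 NC-M libraries were above all 3 IC-F libraries for each of these 4 genes, as for 27% of all genes tested. The thyroid hormone receptor gene thrb (limma log2 0.94 ± 0.25 SE, adjusted p = 0.0206) and the membrane progestin receptor gene paqr7a (limma log2 0.66 ± 0.19 SE, adjusted p = 0.0291) made up the rest. Prlra and thrb lost their calls without any 1 of the IC-F libraries or NC-M 2, and thrb also without NC-M 1. Paqr7a lost its call without any 1 of the IC-F libraries or NC-M 2. The count of rises was 2 to 5 without any 1 of the IC-F libraries, NC-M 1 or NC-M 2, and 7 without NC-M 3.

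Leydig cell and steroid synthesis genes were mostly not called. Of 24 listed genes, 19 were tested, of which 3 rose and 2 fell (median log2 0.46). Star, which brings cholesterol into mitochondria for steroid synthesis, was not called, at 18.5, 9.33 and 35.5 FPKM in NC-M, against 19.7, 24.6 and 19.6 FPKM in IC-F (limma log2 −0.19 ± 0.39 SE, adjusted p = 0.727). Insl3 was not called, at 42.6, 40.8 and 66.5 FPKM in NC-M, against 45.7, 37.6 and 37.9 FPKM in IC-F (limma log2 0.27 ± 0.26 SE, adjusted p = 0.442). The falls were those of fdxr and tspo. Fdxr, which feeds electrons to steroid enzymes, stood at 16.2, 14.5 and 20.1 FPKM in NC-M, against 34.1, 31.8 and 31.4 FPKM in IC-F (limma log2 −0.91 ± 0.15 SE, adjusted p = 0.00476). Tspo, a protein of the outer mitochondrial membrane, stood at 43.2, 53.3 and 135 FPKM in NC-M, against 243, 218 and 224 FPKM in IC-F (limma log2 −1.74 ± 0.37 SE, adjusted p = 0.01). Beside lhcgr, the rises were those of srd5a3 (limma log2 0.59 ± 0.14 SE, adjusted p = 0.0156) and of scarb1, a receptor for cholesterol uptake (limma log2 0.59 ± 0.20 SE, adjusted p = 0.0478). Srd5a3 was not called without IC-F 2 or IC-F 3, and scarb1 without any 1 library other than NC-M 3. Median-of-ratios scaling left 2 higher and 2 lower, and 6 rose without NC-M 3.

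**Figure D4:**
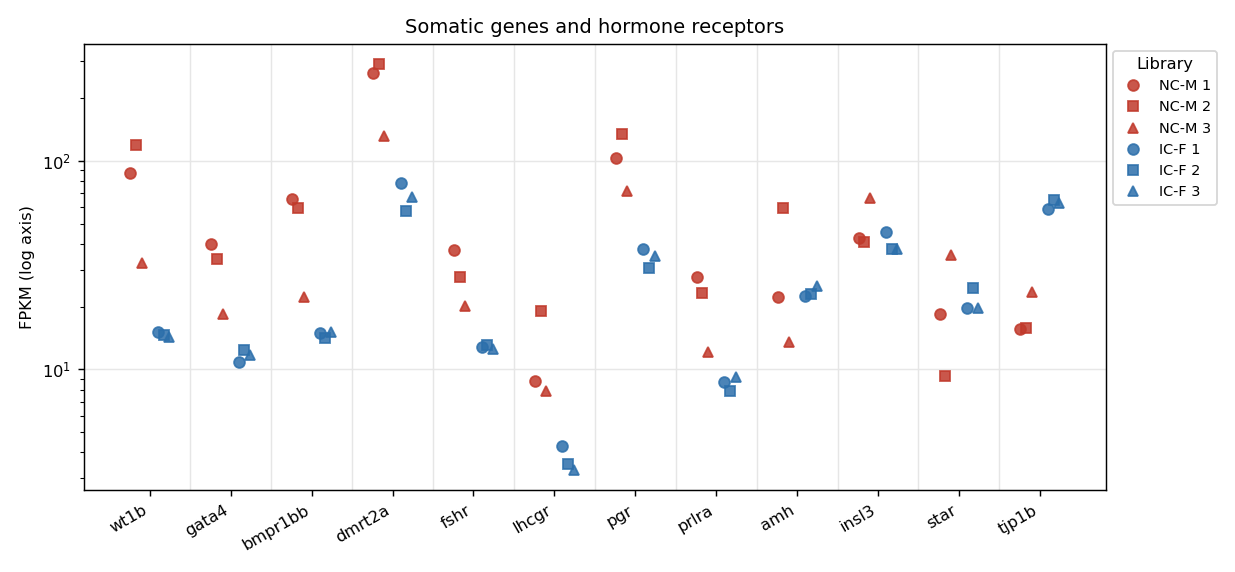
FPKM (log axis) of 12 genes of the gonadal soma and of hormone receptors in each library, with NC-M in red and IC-F in blue. For wt1b, gata4, bmpr1bb and prlra NC-M 3 lies between the other NC-M libraries and IC-F, for amh, insl3 and star the groups overlap, and tjp1b is lower in all 3 NC-M libraries.

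Of 15 tested growth factor and niche signal genes (of 41), 0 rose and 1 fell (median log2 0.28). The fall was that of bmp7b, at 0.46, 0.76 and 1.97 FPKM in NC-M, against 3.82, 3.15 and 3.00 FPKM in IC-F (limma log2 −1.13 ± 0.30 SE, adjusted p = 0.021), and it ended without any 1 library other than NC-M 3, where 4 rose and 2 fell. Of 14 tested genes for retinoic acid, the signal that starts meiosis in mammals (of 22), 2 rose and 0 fell. The receptor gene rxrgb stood at 6.96, 6.04 and 4.72 FPKM in NC-M, against 2.27, 3.14 and 3.14 FPKM in IC-F (limma log2 0.84 ± 0.17 SE, adjusted p = 0.00963). The binding protein gene crabp2b (limma log2 0.85 ± 0.21 SE, adjusted p = 0.0179) lost its call without any 1 of the IC-F libraries. The retinol-binding protein receptor relative stra6l, which reached the filter only through NC-M and is not counted, stood at 2.35, 1.89 and 1.44 FPKM in NC-M, against 0.67, 0.51 and 0.73 FPKM in IC-F.

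Markers of the other cell types that a gonad sample can hold were examined in the same way, and their part in the results above was not tested. Of 20 tested contractile and peritubular genes, which mark the muscle-like cells around the tubules, 4 rose and 1 fell (median log2 0.45). The smooth muscle myosin gene myh11a stood at 70.8, 69.3 and 51.8 FPKM in NC-M, against 33.2, 27.2 and 30.6 FPKM in IC-F (limma log2 1.04 ± 0.17 SE, adjusted p = 0.00489). The actin gene actc1a stood at 25.3, 21.0 and 20.2 FPKM in NC-M, against 4.25, 8.44 and 7.43 FPKM in IC-F (limma log2 1.63 ± 0.27 SE, adjusted p = 0.00448). The smooth muscle gene cald1a rose (limma log2 1.12 ± 0.27 SE, adjusted p = 0.0148), a result lost when IC-F 2 or IC-F 3 was left out. In this list 2 to 5 rose and 0 fell without any 1 library other than NC-M 3, and 5 rose and 1 fell without NC-M 3. Of 43 tested extracellular matrix genes (of 60), 6 rose and 3 fell. The matrix protease gene mmp15b stood at 4.84, 10.3 and 9.58 FPKM in NC-M, against 32.5, 28.7 and 27.4 FPKM in IC-F (limma log2 −1.78 ± 0.27 SE, adjusted p = 0.00349). The collagen chaperone gene serpinh1a stood at 10.3, 10.8 and 7.50 FPKM in NC-M, against 4.73, 5.09 and 4.99 FPKM in IC-F (limma log2 0.81 ± 0.17 SE, adjusted p = 0.00905). The collagen cross-linking gene loxl1 stood at 5.07, 5.24 and 3.30 FPKM in NC-M, against 1.89, 1.73 and 2.06 FPKM in IC-F (limma log2 0.92 ± 0.20 SE, adjusted p = 0.0109). In the matrix list 2 to 4 rose and 1 to 2 fell without any 1 library other than NC-M 3, and 16 rose and 5 fell without NC-M 3.

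Of 21 tested endothelium genes (of 28), 2 rose and 1 fell, and the list summed to 150.2 to 171 FPKM in NC-M and 139 to 149 FPKM in IC-F. The vessel growth factor receptor flt1 stood at 3.65, 3.18 and 4.96 FPKM in NC-M, against 9.80, 8.73 and 9.44 FPKM in IC-F (limma log2 −1.08 ± 0.18 SE, adjusted p = 0.00499). The rises of stab2 and kdrl ended without any 1 of the IC-F libraries or NC-M 2, and that of kdrl also without NC-M 1. Median-of-ratios scaling left 1 higher and 2 lower. Of the endothelium list 0 to 2 rose and 1 fell without any 1 library other than NC-M 3, and 6 rose and 2 fell without NC-M 3. Cdh5, an adhesion gene of vessel walls that reached the filter only with the NC-M libraries and is not counted, stood at 1.22, 0.94 and 1.27 FPKM in NC-M, against 0.44, 0.52 and 0.46 FPKM in IC-F. Of 17 tested myeloid genes (of 23), 2 rose and 1 fell, and the list summed to 152 to 198 FPKM in NC-M and 153 to 160.1 FPKM in IC-F. Ptprc, the leukocyte antigen CD45, stood at 21.1, 26.0 and 15.0 FPKM in NC-M, against 5.26, 4.91 and 5.26 FPKM in IC-F (limma log2 1.79 ± 0.22 SE, adjusted p = 0.00203). Ncf4, of the oxidase of phagocytes, rose (limma log2 0.95 ± 0.29 SE, adjusted p = 0.0368), and its call ended without any 1 of the IC-F libraries or NC-M 2. Of the myeloid list 1 to 2 rose and 1 fell without any 1 library other than NC-M 3, and 4 rose and 2 fell without NC-M 3.

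Of 4 tested lymphocyte genes none was called by limma (cd40 had the smallest p, limma log2 0.63 ± 0.24 SE, adjusted p = 0.0732), whereas 2 rose without NC-M 3, and the list of 21 summed to 19.4 to 28.6 FPKM in NC-M and 16.7 to 18.1 FPKM in IC-F. The 11 red blood cell genes summed to 108 to 454 FPKM in NC-M and 368 to 622 FPKM in IC-F, with 2 rises and 1 falls of 7 tested (0 higher and 1 lower after median-of-ratios scaling). The membrane gene slc4a1a (limma log2 0.68 ± 0.19 SE, adjusted p = 0.0268) and the erythroid gene hemgn (limma log2 0.78 ± 0.24 SE, adjusted p = 0.0354) rose. Each lost its call without IC-F 1, IC-F 3, NC-M 1 or NC-M 2, and hemgn also without IC-F 2. Sptb, a membrane skeleton gene that reached the filter only through IC-F and is not counted, stood at 0.50, 0.13 and 0.99 FPKM in NC-M, against 1.83, 2.04 and 1.83 FPKM in IC-F. Of the 11 genes of liver and yolk precursors, 8 stayed below 1 FPKM in all 6 libraries and 1 was tested, with no call by limma. Apoa2, of lipid transport, was not counted, and stood at 0.52, 0 and 0 FPKM in NC-M, against 1.19, 0.23 and 0 FPKM in IC-F. Skeletal muscle genes summed to 54.6 to 94.4 FPKM in NC-M and 46.6 to 52.8 FPKM in IC-F, with 1 rise of 5 tested, that of neb, which ended without any 1 of the IC-F libraries or NC-M 1. Mylz3, a myosin light chain gene that reached the filter only through NC-M and is not counted, stood at 2.2, 1.31 and 1.88 FPKM in NC-M, against 0.66, 0.78 and 0.44 FPKM in IC-F. Fat cell genes summed to 599 to 691 FPKM in NC-M and 611 to 617 FPKM in IC-F, with 6 rises and 1 fall of 13 tested (3 higher and 1 lower after median-of-ratios scaling). Among them the lipase gene lipeb rose (limma log2 1.04 ± 0.22 SE, adjusted p = 0.00975), as did dgat1b (limma log2 0.68 ± 0.18 SE, adjusted p = 0.0235), which lost its call without any 1 library other than NC-M 3. The fatty acid carrier gene fabp4b fell (limma log2 −1.44 ± 0.34 SE, adjusted p = 0.0153) except when IC-F 2 or IC-F 3 was left out. Of the fat cell list 1 to 2 rose and 0 to 2 fell without any 1 library other than NC-M 3, and 7 rose and 1 fell without NC-M 3.

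Zar1 was low by the choice of the libraries, and other ovary genes were not all low. Of the 17 oocyte genes 10 were tested, of which 3 rose and 2 fell, and 5 stayed below 1 FPKM in all 6 libraries. Figla, a transcription factor gene of the oocyte, was not called, at 3.51, 16.3 and 44.9 FPKM in NC-M, against 32.4, 29.1 and 27.7 FPKM in IC-F (limma log2 −1.005 ± 0.72 SE, adjusted p = 0.301), beside 80.5, 66.5 and 49.0 FPKM in the ovary-type NC-F libraries. The egg coat gene zpd stood at 6.74, 8.04 and 6.38 FPKM in NC-M, against 2.11, 2.06 and 2.46 FPKM in IC-F (limma log2 1.32 ± 0.21 SE, adjusted p = 0.00416). The oocyte kinase gene wee2 stood at 3.48, 3.93 and 3.03 FPKM in NC-M, against 1.67, 1.81 and 1.34 FPKM in IC-F (limma log2 0.78 ± 0.17 SE, adjusted p = 0.0119). Buc, which organises the germ plasm of zebrafish eggs, stood at 0.23, 0.37 and 2.80 FPKM in NC-M, against 5.33, 4.36 and 5.30 FPKM in IC-F (limma log2 −1.69 ± 0.40 SE, adjusted p = 0.015), and its call ended without IC-F 1, IC-F 3 or NC-M 2. The rises of wee2 and zpd amounted to a few FPKM, and that of wee2 ended without IC-F 3. Of the oocyte list 1 to 3 rose and 0 to 2 fell without any 1 library other than NC-M 3, and 3 rose and 5 fell without NC-M 3. Of 7 tested granulosa and theca genes, 3 rose and 1 fell, the rises being pgr, lhcgr and fshr, which the testis also uses. The fall was lost without any 1 library other than NC-M 3. The median tested member lay at log2(FPKM + 1) 4.29, 4.33 and 4.41 in NC-M 1, 2 and 3, 3.92, 3.83 and 3.85 in IC-F and 1.35, 1.37 and 0.82 in NC-F, although these members were taken by their level in testis-type libraries.

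Immune signalling genes went both ways. Of 26 tested interferon and antigen presentation genes (of 30), 9 rose and 5 fell (median log2 0.48). Jak3, a kinase of cytokine receptors, stood at 1.12, 1.09 and 1.01 FPKM in NC-M, against 17.2, 14.4 and 22.5 FPKM in IC-F (limma log2 −3.18 ± 0.18 SE, adjusted p = 0.000106), and was low in all 3 NC-M libraries alike. Jak2a stood at 11.13, 10.4 and 27.9 FPKM in NC-M, against 52.9, 50.6 and 51.7 FPKM in IC-F (limma log2 −1.73 ± 0.32 SE, adjusted p = 0.0065), and NC-M 3 lay between the others and IC-F. The kinase gene tyk2 (limma log2 −0.83 ± 0.15 SE, adjusted p = 0.00669), the transcription factor gene stat5a (limma log2 −1.19 ± 0.28 SE, adjusted p = 0.0148) and the antiviral gene rsad2 (limma log2 −1.90 ± 0.44 SE, adjusted p = 0.014) also fell. The virus sensor gene dhx58 stood at 95.0, 108 and 62.7 FPKM in NC-M, against 30.1, 27.9 and 29.4 FPKM in IC-F (limma log2 1.54 ± 0.22 SE, adjusted p = 0.0032), and stat1a (limma log2 0.67 ± 0.16 SE, adjusted p = 0.0171) and stat2 (limma log2 1.00 ± 0.25 SE, adjusted p = 0.0172) rose with it. The calls of stat1a and stat2 ended without any 1 of the IC-F libraries or NC-M 2, that of stat5a without any 1 of the IC-F libraries, and that of rsad2 without IC-F 3. Median-of-ratios scaling gave 4 higher and 5 lower, and the count of rises was 1 to 6 without any 1 library other than NC-M 3. Of 8 complement and acute phase genes, 1 rose and 2 fell. The complement protease gene masp1 stood at 12.1, 16.1 and 28.5 FPKM in NC-M, against 78.4, 90.1 and 82.6 FPKM in IC-F (limma log2 −2.17 ± 0.35 SE, adjusted p = 0.00419). The clotting genes f3a (limma log2 −0.67 ± 0.19 SE, adjusted p = 0.0268) and f2 (limma log2 1.39 ± 0.43 SE, adjusted p = 0.0373) lost their calls without any 1 of the IC-F libraries or NC-M 1, and f2 also without NC-M 2. Of the complement list 0 rose and 1 to 2 fell without any 1 library other than NC-M 3, and 2 rose and 2 fell without NC-M 3.

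Ribosomal protein genes were high in NC-M 1 and NC-M 2 and near IC-F in NC-M 3. All 75 cytosolic ribosomal protein genes were tested, of which 26 rose and 0 fell (median log2 0.83). The median member lay at log2(FPKM + 1) 11.78, 11.67 and 10.67 in NC-M 1, 2 and 3, against 10.42, 10.60 and 10.48 in IC-F 1, 2 and 3. NC-M 3 was the lowest NC-M library in all 75 genes, against 38.0% of all genes tested. Rps9, of the small subunit, stood at 2762, 2536 and 1142 FPKM in NC-M, against 775, 895 and 836 FPKM in IC-F (limma log2 1.26 ± 0.32 SE, adjusted p = 0.0184). Rps15a of the same subunit stood at 4144, 3824 and 1789 FPKM in NC-M, against 1282, 1451 and 1322 FPKM in IC-F (limma log2 1.17 ± 0.31 SE, adjusted p = 0.0222). Rpl5a, of the large subunit, stood at 111, 113 and 89.6 FPKM in NC-M, against 62.6, 61.5 and 61.0 FPKM in IC-F (limma log2 0.74 ± 0.13 SE, adjusted p = 0.00541). After median-of-ratios scaling 6 higher and 0 lower were called. The count of rises was 1 without any 1 of the IC-F libraries, NC-M 1 or NC-M 2, when the calls of rps9 and rps15a ended, and 74 without NC-M 3.

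Protein folding genes fell in part. Of 55 tested genes of the unfolded protein response and folding in the endoplasmic reticulum, 20 fell and 4 rose (median log2 −0.30). The chaperone gene canx, which in mammals has a testis-specific relative, stood at 36.8, 36.6 and 39.0 FPKM in NC-M, against 65.6, 76.6 and 69.1 FPKM in IC-F (limma log2 −0.89 ± 0.15 SE, adjusted p = 0.00493). The stress phosphatase gene ppp1r15b stood at 10.8, 9.13 and 29.0 FPKM in NC-M, against 76.9, 82.7 and 84.4 FPKM in IC-F (limma log2 −2.43 ± 0.37 SE, adjusted p = 0.0036). Of 80 heat shock and co-chaperone genes, 22 fell and 9 rose (median log2 −0.13). The HSP70 relative hspa13 stood at 3.12, 2.77 and 4.73 FPKM in NC-M, against 10.1, 10.3 and 9.77 FPKM in IC-F (limma log2 −1.31 ± 0.18 SE, adjusted p = 0.00265). Hspbap1 stood at 5.82, 7.95 and 10.3 FPKM in NC-M, against 20.6, 20.0 and 20.7 FPKM in IC-F (limma log2 −1.28 ± 0.18 SE, adjusted p = 0.00315). Bag6l stood at 22.5, 26.2 and 17.8 FPKM in NC-M, against 10.1, 8.09 and 9.32 FPKM in IC-F (limma log2 1.17 ± 0.17 SE, adjusted p = 0.0033). The heat shock list also holds dnajb13, a radial spoke part, and hsf5 and hspb11, which are known from spermatocytes and from intraflagellar transport, and these fell. The heat shock falls numbered 9 to 12 without any 1 library other than NC-M 3 and 35 without NC-M 3. Heat shock rises numbered 5 to 12 and 18 in the same fits. Of the unfolded protein response list 0 to 2 rose and 12 to 15 fell without any 1 library other than NC-M 3, and 9 rose and 27 fell without NC-M 3. After median-of-ratios scaling the unfolded protein response list had 0 higher and 21 lower.

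Of 48 tested proteasome genes, 9 rose and 3 fell (median log2 −0.08), beside 16.4% and 18.1% of all genes tested. After median-of-ratios scaling 5 higher and 5 lower were called (median log2 −0.23). NC-M 3 was above all 3 IC-F libraries while NC-M 1 and NC-M 2 were below all 3 in 18 of the 48 genes. How many of all genes tested had this pattern was not counted. Psme2, of the interferon-induced activator, stood at 114, 125 and 96.2 FPKM in NC-M, against 47.4, 46.6 and 46.9 FPKM in IC-F (limma log2 1.22 ± 0.15 SE, adjusted p = 0.00179). The core gene psma4 stood at 94.5, 124 and 110.2 FPKM in NC-M, against 64.6, 66.7 and 64.2 FPKM in IC-F (limma log2 0.73 ± 0.13 SE, adjusted p = 0.00619). Psmb12 stood at 21.6, 15.1 and 12.5 FPKM in NC-M, against 6.42, 6.17 and 8.53 FPKM in IC-F (limma log2 1.09 ± 0.23 SE, adjusted p = 0.00955). Without NC-M 3, 8 higher and 24 lower of 48 (median log2 −0.38) were called, so that the larger direction turned. The count of rises was 3 to 9 without any 1 other library.

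Of 75 tested genes (of 81) for lysosomes, engulfment of cells and autophagy, the machinery by which Sertoli cells clear remnants of germ cells, 16 rose and 13 fell (median log2 0.03), and median-of-ratios scaling gave 8 higher and 17 lower, which turned the larger direction. The autophagy protease gene atg4c stood at 23.3, 12.6 and 34.0 FPKM in NC-M, against 106, 99.96 and 103 FPKM in IC-F (limma log2 −2.20 ± 0.30 SE, adjusted p = 0.00258). The autophagy kinase gene ulk1a stood at 3.97, 3.50 and 4.17 FPKM in NC-M, against 1.62, 1.27 and 1.53 FPKM in IC-F (limma log2 0.98 ± 0.14 SE, adjusted p = 0.0033). The proton pump gene atp6v1b2, which reached the filter only through IC-F and is not counted, was low in both groups, at 0.07, 0.08 and 0.11 FPKM in NC-M, against 1.52, 1.72 and 1.56 FPKM in IC-F. When NC-M 3 was left out, 24 rose and 19 fell, and without any 1 other library 6 to 10 rose and 8 to 10 fell.

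Most respiratory chain genes were not called, and those called were more often higher than lower. Of 57 nuclear genes of oxidative phosphorylation, all tested, 13 rose and 4 fell (median log2 0.21). Among all genes tested 16.4% rose and 18.1% fell (median log2 0.13). After median-of-ratios scaling 10 higher and 7 lower of the 57 were called (median log2 0.06). Ndufb6, of complex I, stood at 154, 181 and 180.4 FPKM in NC-M, against 93.4, 86.2 and 89.8 FPKM in IC-F (limma log2 0.93 ± 0.14 SE, adjusted p = 0.00365). Ndufs7 of the same complex stood at 114, 124 and 129 FPKM in NC-M, against 72.6, 69.3 and 71.2 FPKM in IC-F (limma log2 0.77 ± 0.13 SE, adjusted p = 0.00433). Atp5fa1, of the ATP synthase, stood at 73.5, 80.6 and 82.3 FPKM in NC-M, against 48.9, 50.3 and 46.2 FPKM in IC-F (limma log2 0.69 ± 0.11 SE, adjusted p = 0.00436). These 3 had the smallest p of the list, and their groups did not overlap, with NC-M higher, as in 27% of all genes tested. In this list 8 to 12 rose and 1 to 2 fell without any 1 library other than NC-M 3, and 15 rose and 13 fell without NC-M 3. Of 12 tested protein genes of the mitochondrial genome (of 13), 5 rose and 0 fell (median log2 0.71). ND2, of complex I, stood at 6692, 5293 and 6292 FPKM in NC-M, against 2791, 3755 and 3348 FPKM in IC-F (limma log2 0.89 ± 0.21 SE, adjusted p = 0.0155). ND6 stood at 1206, 1124 and 1511 FPKM in NC-M, against 712, 849.9 and 789 FPKM in IC-F (limma log2 0.70 ± 0.17 SE, adjusted p = 0.015). ND5 stood at 985, 1098 and 1384 FPKM in NC-M, against 619.7, 810.3 and 711 FPKM in IC-F (limma log2 0.69 ± 0.18 SE, adjusted p = 0.0212). All 3 calls were lost when IC-F 1 or IC-F 3 was left out, and that of ND5 also without NC-M 2. After median-of-ratios scaling 3 higher and 0 lower were called. The count of rises in the mitochondrial genome list was 0 without IC-F 1 or IC-F 3, and 3 without IC-F 2. It was 4, 2 and 9 without NC-M 1, 2 and 3. ND1, a gene that every cell uses, was listed at 0 in NC-M 1 and NC-M 2 and at 709 FPKM in NC-M 3, against 209.5, 361 and 391.68 FPKM in IC-F 1, 2 and 3, so that an exact 0 can be a failed estimate.

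Genes of fuel use were called more often higher than lower. Of 29 tested glycolysis genes (of 39), 13 rose and 4 fell (median log2 0.57). Gapdh stood at 1194, 1359 and 735 FPKM in NC-M, against 312, 333 and 317 FPKM in IC-F (limma log2 1.72 ± 0.27 SE, adjusted p = 0.00382). The isomerase gene gpia stood at 117, 126 and 97.9 FPKM in NC-M, against 44.7, 55.5 and 46.3 FPKM in IC-F (limma log2 1.203 ± 0.16 SE, adjusted p = 0.00226). Pfkfb2b, which sets the level of a glycolysis activator, stood at 2.96, 1.07 and 4.60 FPKM in NC-M, against 29.7, 28.2 and 27.3 FPKM in IC-F (limma log2 −3.04 ± 0.35 SE, adjusted p = 0.0016). Median-of-ratios scaling gave 8 higher and 4 lower, and in this list 7 to 12 rose and 2 to 3 fell without any 1 library other than NC-M 3, and 12 rose and 5 fell without NC-M 3. Of 55 tested fatty acid and lipid genes, 15 rose and 2 fell (median log2 0.42). The fatty acid oxidation gene hadh stood at 212, 199 and 122.53 FPKM in NC-M, against 62.6, 52.0 and 57.0 FPKM in IC-F (limma log2 1.58 ± 0.23 SE, adjusted p = 0.00334). Acacb, which makes the inhibitor of that pathway, stood at 11.9, 12.8 and 13.5 FPKM in NC-M, against 6.85, 6.12 and 7.12 FPKM in IC-F (limma log2 0.84 ± 0.13 SE, adjusted p = 0.0035). Among the lipid genes 6 to 13 rose and 0 to 4 fell without any 1 library other than NC-M 3, and 23 rose and 5 fell without NC-M 3.

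Of 43 tested antioxidant and glutathione genes (of 46), 12 rose and 3 fell (median log2 0.40). The peroxide-removing gene prdx3 stood at 170.3, 166 and 117 FPKM in NC-M, against 61.6, 56.9 and 62.5 FPKM in IC-F (limma log2 1.29 ± 0.17 SE, adjusted p = 0.00254). Prdx2 of the same family stood at 399, 344 and 314 FPKM in NC-M, against 177, 192 and 189 FPKM in IC-F (limma log2 0.91 ± 0.14 SE, adjusted p = 0.00346). The glutathione transferase gene mgst3a stood at 142, 128 and 162 FPKM in NC-M, against 76.9, 72.6 and 76.8 FPKM in IC-F (limma log2 0.92 ± 0.13 SE, adjusted p = 0.00311). These 3 had the smallest p of the list, and each was higher in every NC-M library than in any IC-F library, as were 27% of all genes tested. Of the antioxidant list 7 to 13 rose and 2 fell without any 1 library other than NC-M 3, and 21 rose and 5 fell without NC-M 3. Of 21 cholesterol synthesis genes, 4 rose and 4 fell (median log2 0.04), and 0 higher and 4 lower after median-of-ratios scaling. The squalene synthase gene fdft1 stood at 10.6, 16.8 and 14.7 FPKM in NC-M, against 49.8, 47.4 and 52.6 FPKM in IC-F (limma log2 −1.78 ± 0.28 SE, adjusted p = 0.00415). The sterol cyclase gene lss stood at 4.15, 7.26 and 8.36 FPKM in NC-M, against 14.8, 14.9 and 14.9 FPKM in IC-F (limma log2 −1.11 ± 0.22 SE, adjusted p = 0.00794). Of the cholesterol list 0 to 2 rose and 3 to 4 fell without any 1 library other than NC-M 3, and 5 rose and 5 fell without NC-M 3.

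Cell cycle and DNA replication genes moved in both directions. Of 78 tested (of 80), 17 rose and 23 fell (median log2 0.07). The replication genes lig1, orc4 and mcm10 rose in all 3 NC-M libraries alike. Lig1, a DNA ligase gene, stood at 36.9, 37.3 and 34.3 FPKM in NC-M, against 15.9, 14.3 and 16.0 FPKM in IC-F (limma log2 1.18 ± 0.11 SE, adjusted p = 0.000877). Orc4, of the origin recognition complex, stood at 31.0, 26.9 and 29.0 FPKM in NC-M, against 12.8, 10.3 and 13.6 FPKM in IC-F (limma log2 1.19 ± 0.16 SE, adjusted p = 0.00241). Mcm10 stood at 18.7, 20.2 and 19.4 FPKM in NC-M, against 9.49, 7.16 and 9.80 FPKM in IC-F (limma log2 1.07 ± 0.16 SE, adjusted p = 0.00363). The falls included the mitotic genes plk1, ttk, cenpe, cenpf and bub1bb beside ccnb2 and aurka, and the rises included mcm2, cdc6, cdk4, cdk6 and e2f1. These names were chosen as examples after their values were seen. The calls of cenpe and ccnb2 held without any 1 library, and that of e2f1 ended without IC-F 2. Each of the other examples lost its call without any 1 of the IC-F libraries or NC-M 2, and cdc6 also without NC-M 3. Those of plk1, ttk, cenpf, bub1bb, aurka, cdk4 and cdk6 ended without NC-M 1 as well. Median-of-ratios scaling gave 10 higher and 25 lower. In this list 8 to 22 rose and 8 to 9 fell without any 1 library other than NC-M 3, and 16 rose and 35 fell without NC-M 3.

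Of 43 tested genes of apoptosis and damage response (of 52), 6 rose and 9 fell (median log2 0.03). Apaf1, which assembles the caspase activator, stood at 4.07, 4.49 and 3.77 FPKM in NC-M, against 9.22, 9.00 and 9.58 FPKM in IC-F (limma log2 −1.01 ± 0.15 SE, adjusted p = 0.00328). Bcl2l13 stood at 17.6, 13.4 and 33.7 FPKM in NC-M, against 72.0, 78.2 and 73.6 FPKM in IC-F (limma log2 −1.85 ± 0.29 SE, adjusted p = 0.00415). In this list 2 to 4 rose and 5 to 7 fell without any 1 library other than NC-M 3, and 10 rose and 13 fell without NC-M 3. Of 27 hypoxia response genes, 5 rose and 3 fell, and median-of-ratios scaling gave 4 higher and 5 lower, which turned the larger direction. Arnt and arnt2, partners of the oxygen-sensing factors, rose (limma log2 1.30 ± 0.22 SE, adjusted p = 0.00486, and limma log2 1.13 ± 0.23 SE, adjusted p = 0.0085), and vhl, which marks those factors for breakdown, fell (limma log2 −0.65 ± 0.15 SE, adjusted p = 0.0145) but lost its call without any 1 of the IC-F libraries. Of the hypoxia list 2 to 3 rose and 0 to 2 fell without any 1 library other than NC-M 3, and 6 rose and 7 fell without NC-M 3, where the larger direction turned. Of 24 tested circadian clock genes (of 30), 4 rose and 7 fell. The falls included the clock kinase gene csnk1db (limma log2 −1.22 ± 0.18 SE, adjusted p = 0.00359), cry5 (limma log2 −1.89 ± 0.39 SE, adjusted p = 0.00934) and npas2 (limma log2 −1.13 ± 0.24 SE, adjusted p = 0.0096), and these 3 calls held without any 1 library. Of the clock list 0 to 2 rose and 3 fell without any 1 library other than NC-M 3, and 4 rose and 9 fell without NC-M 3, and 1 higher and 7 lower were called after median-of-ratios scaling.

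Of 21 tested corticosteroid-responsive genes (of 26), 1 rose and 3 fell, namely zbtb16b, klf9 (limma log2 −1.43 ± 0.40 SE, adjusted p = 0.0266) and glulb (limma log2 −2.61 ± 0.73 SE, adjusted p = 0.0266). The calls of klf9 and glulb ended without any 1 library other than NC-M 3. Of 29 tight and gap junction genes tested (of 64), 1 rose and 8 fell (median log2 −0.06). Beside tjp1b, the cell adhesion gene nectin3a stood at 10.5, 8.76 and 20.7 FPKM in NC-M, against 33.1, 35.5 and 34.7 FPKM in IC-F (limma log2 −1.40 ± 0.27 SE, adjusted p = 0.00755). The tight junction gene marveld3 stood at 2.54, 2.41 and 5.85 FPKM in NC-M, against 11.5, 9.71 and 9.78 FPKM in IC-F (limma log2 −1.37 ± 0.28 SE, adjusted p = 0.00905). Of the junction list 0 to 1 rose and 3 to 6 fell without any 1 library other than NC-M 3, and 5 rose and 10 fell without NC-M 3. In mammals nectin-3 is known to join spermatids to Sertoli cells.

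The 12 largest rises were taken on the log2(FPKM + 1) scale among named genes with a mean of at least 5 FPKM whose groups did not overlap. On that scale tgm8, a transglutaminase gene (these enzymes cross-link proteins), came first. It stood at 193, 167 and 113 FPKM in NC-M, against 2.97, 2.36 and 4.29 FPKM in IC-F, a ratio of means of 49.2 (limma log2 5.23 ± 0.28 SE, adjusted p = 8.23e-05). Ccnt1, a subunit of the transcription elongation factor P-TEFb, reached the filter only with the NC-M libraries. It stood at 26.5, 23.0 and 7.87 FPKM in NC-M, against 0.26, 0.08 and 0.29 FPKM in IC-F. Hhla2b.1, of the B7 family of immune ligands, stood at 11.05, 9.88 and 14.0 FPKM in NC-M, against 1.14, 0.43 and 1.29 FPKM in IC-F (limma log2 2.71 ± 0.25 SE, adjusted p = 0.000801). Cunh15orf48 stood at 72.9, 101 and 75.7 FPKM in NC-M, against 13.4, 11.8 and 13.6 FPKM in IC-F (limma log2 2.58 ± 0.16 SE, adjusted p = 0.000155). The small GTPase gene rasl11b stood at 65.5, 73.4 and 41.3 FPKM in NC-M, against 10.0, 9.66 and 8.91 FPKM in IC-F (limma log2 2.50 ± 0.27 SE, adjusted p = 0.00129). The protease inhibitor gene spint1a stood at 12.6, 9.59 and 5.82 FPKM in NC-M, against 1.21, 0.85 and 0.56 FPKM in IC-F (limma log2 2.42 ± 0.27 SE, adjusted p = 0.00136). The ratio of means was larger in ccnt1, at 91.2, than in tgm8, because ccnt1 was below 1 FPKM in IC-F.

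The remaining large rises were of 6 further genes. Sdad1, whose yeast relative acts in ribosome assembly, stood at 16.4, 6.83 and 13.0 FPKM in NC-M 1, 2 and 3 and was listed at 0 in all 3 IC-F libraries (limma adjusted p = 0.0035). As for ND1, an exact 0 can be a failed estimate, so this rise is uncertain. The muscle sodium channel gene scn4ab stood at 4.47, 24.1 and 10.4 FPKM in NC-M, against 0.23, 0.31 and 0.18 FPKM in IC-F (limma log2 3.23 ± 0.48 SE, adjusted p = 0.00343). The sodium-proton exchanger gene slc9a5 stood at 3.25, 14.1 and 4.88 FPKM in NC-M, against 0.10, 0.11 and 0.09 FPKM in IC-F. Ldhba, a lactate dehydrogenase gene, stood at 54.5, 32.3 and 62.8 FPKM in NC-M, against 1.35, 0.79 and 0.33 FPKM in IC-F (limma log2 4.79 ± 1.58 SE, adjusted p = 0.0471), and lost its call when any 1 of the 6 libraries was left out. In HT-F, the testis-type libraries warmed to 28 °C, which share the fit, ldhba stood at 0.76, 159 and 216 FPKM. Plekhg2, an activator of small GTPases, stood at 126, 468 and 217 FPKM in NC-M, against 17.9, 20.6 and 35.1 FPKM in IC-F (limma log2 3.26 ± 0.95 SE, adjusted p = 0.0308), and its call ended without any 1 of the IC-F libraries or NC-M 2. Ccnt1 and slc9a5 reached the filter only with the NC-M libraries, so their test of NC-M against IC-F is not given. The tetraspanin gene tspan3b stood at 37.2, 31.5 and 24.3 FPKM in NC-M, against 1.05, 0.97 and 8.38 FPKM in IC-F (limma log2 3.23 ± 0.74 SE, adjusted p = 0.0134), and was not called when IC-F 1 or IC-F 2 was left out.

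Among the largest falls, palm1a, a paralemmin gene of the cell membrane, was low in all 3 NC-M libraries, at 9.47, 6.74 and 1.58 FPKM in NC-M, against 141, 149 and 156 FPKM in IC-F, a ratio of means of 25.1 in favour of IC-F (limma log2 −4.66 ± 0.46 SE, adjusted p = 0.00102). Rab27a, a GTPase of vesicle release, stood at 0, 0.17 and 1.51 FPKM in NC-M 1, 2 and 3, against 20.9, 15.7 and 22.6 FPKM in IC-F 1, 2 and 3 (limma adjusted p = 0.00742). In the other large falls NC-M 3 kept a part of the IC-F level. Odad4, of the dynein docking complex, was listed at 0 in NC-M 1 and NC-M 2 and stood at 45.1 FPKM in NC-M 3, against 117, 115 and 118 FPKM in IC-F 1, 2 and 3 (limma adjusted p = 0.0192). Its zeros, too, can be failed estimates. Hsf5, a factor needed in zebrafish and mouse spermatocytes, stood at 1.11, 0.77 and 89.0 FPKM in NC-M, against 141, 135 and 147 FPKM in IC-F (limma log2 −4.35 ± 1.30 SE, adjusted p = 0.0334). The calls of odad4 and hsf5 ended without any 1 library other than NC-M 3.

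The opsin gene opn8c stood at 1.60, 0.57 and 14.2 FPKM in NC-M, against 59.9, 56.5 and 57.5 FPKM in IC-F (limma log2 −3.90 ± 0.75 SE, adjusted p = 0.00742). Kcnmb2, a subunit of calcium-activated potassium channels, stood at 2.73, 0.98 and 24.6 FPKM in NC-M, against 71.7, 66.0 and 69.6 FPKM in IC-F (limma log2 −3.61 ± 0.82 SE, adjusted p = 0.0129). Got1l1, related to an aspartate aminotransferase, stood at 2.53, 0.60 and 30.7 FPKM in NC-M, against 85.1, 78.9 and 82.2 FPKM in IC-F (limma log2 −3.88 ± 0.92 SE, adjusted p = 0.0149). The leucine-rich repeat gene lrrc69 stood at 1.71, 0.50 and 27.2 FPKM in NC-M, against 69.4, 68.6 and 72.6 FPKM in IC-F (limma log2 −3.87 ± 0.92 SE, adjusted p = 0.015). Lrrc18a of the same kind stood at 7.35, 0.72 and 39.9 FPKM in NC-M, against 113, 99.0 and 108 FPKM in IC-F (limma log2 −3.68 ± 0.95 SE, adjusted p = 0.0197). The entries zgc_172121 and si_ch73-103b9.2, known only by clone names, fell as well (limma log2 −3.75 ± 0.87 SE, adjusted p = 0.0141, and limma log2 −3.70 ± 0.76 SE, adjusted p = 0.00935). Of these genes, got1l1 lost its call without IC-F 3, lrrc69 without IC-F 2 or IC-F 3, and lrrc18a without any 1 of the IC-F libraries.

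**Figure D5:**
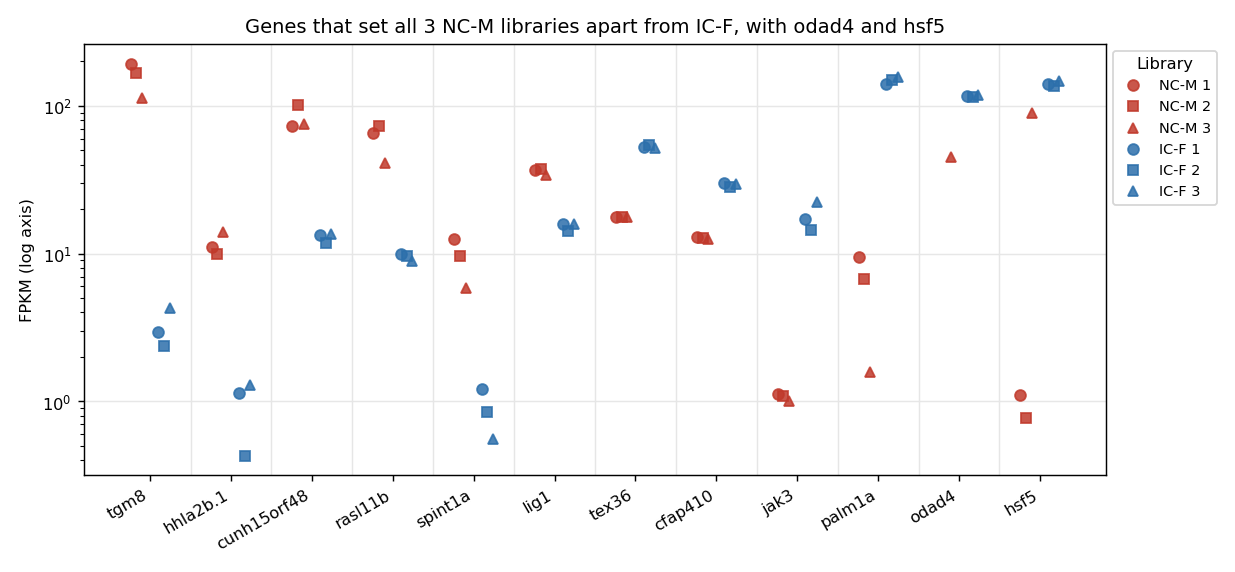
FPKM (log axis) of 12 genes in each library, with NC-M in red and IC-F in blue. In every gene shown all 3 NC-M libraries lie on one side of IC-F. In hsf5 NC-M 3, at 89.0 FPKM, nevertheless lies nearer to IC-F than to NC-M 1 and NC-M 2. The odad4 values of NC-M 1 and NC-M 2, listed at 0, cannot be drawn on this axis.

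The warmed testis-type libraries (HT-F) were set against the same day-0 libraries, so their values are only given side by side. Tgm8 stood at 96.4, 169 and 141 FPKM in HT-F 1, 2 and 3, palm1a at 2.94, 5.44 and 4.61 FPKM and jak3 at 0.45, 0.35 and 0.50 FPKM. The median cilia- and flagella-associated gene lay at log2(FPKM + 1) 5.65, 5.55 and 5.47 in the HT-F libraries, which is close to NC-M 3, and the median gene of the meiotic divisions at 5.52, 5.54 and 5.47. The median gene of meiotic prophase lay at 5.46, 5.54 and 5.31 in HT-F, above all 3 IC-F libraries, as in NC-M 3. Sycp3 (458, 500.15 and 418 FPKM) and dazl (107, 144 and 114 FPKM) were higher in every HT-F library than in NC-M 3. HT-F 1 was above NC-M 3 in ddx4 (554 FPKM) and HT-F 2 in dmc1 (145 FPKM), whereas meiob, at 109, 129 and 108 FPKM, stayed below it.

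The ovary-type gonads of the same times, NC-F after 28 days at 20 °C and IC-M at day 0, show which changes differed between the gonad types. The difference of the 2 changes, (NC-M minus IC-F) minus (NC-F minus IC-M), was called by limma for 8919 of 25184 genes (35.4%), 4212 positive (16.7%) and 4707 negative (18.7%). Of the 15685 genes that reached 1 FPKM in at least 3 ovary-type libraries, 6149 (39.2%) were called. The median cilia- and flagella-associated gene did not exceed log2(FPKM + 1) 0.43 in the ovary-type libraries, although cfap410 stood at 33.8, 36.0 and 27.3 FPKM and cfap36 at 12.7, 12.3 and 10.7 FPKM in NC-F. The median intraflagellar transport gene was higher there, at log2(FPKM + 1) 3.26, 3.27 and 3.30 in NC-F and 3.24, 3.18 and 2.99 in IC-M. For the unfolded protein response list, 2 positive and 21 negative of 55 tested genes differed, and for heat shock and co-chaperones 10 positive and 24 negative of 82 tested. For cytosolic ribosomal proteins, 10 positive and 1 negative of 75 tested differed, which is below the shares of all genes in both directions. For the mitochondrial genome, 11 positive and 0 negative of 12 tested differed, with the median gene at log2(FPKM + 1) 12.82, 12.59 and 13.00 in NC-M, 11.86, 12.23 and 12.07 in IC-F, 8.89, 8.89 and 8.89 in NC-F and 10.02, 9.88 and 10.51 in IC-M.

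Single genes with the largest positive difference included tgm8, which stood at 2.56, 8.41 and 4.38 FPKM in NC-F and 7.49, 8.90 and 12.1 FPKM in IC-M (difference log2 6.10 ± 0.50 SE, limma adjusted p = 1.42e-06). Ccnt1 stood at 29.7, 37.1 and 26.2 FPKM in NC-F and 42.2, 42.7 and 56.8 FPKM in IC-M (difference log2 4.50 ± 0.60 SE, limma adjusted p = 9.83e-05). Rab11fip5a, of vesicle recycling, had a positive difference that came from the ovary-type pair, where it stood at 1.52, 1.31 and 1.42 FPKM in NC-F and 46.4, 47.9 and 51.0 FPKM in IC-M, against 14.5, 13.0 and 6.18 FPKM in NC-M and 7.80, 7.32 and 7.36 FPKM in IC-F (difference log2 4.80 ± 0.32 SE, limma adjusted p = 1.58e-07). Nudt2 and wdr1, an enzyme gene of nucleotide clearance and an actin-disassembly gene, were high among NC-M libraries in NC-M 1 alone, at 32.3, 0.14 and 0.89 FPKM in NC-M, against 0.15, 0.27 and 0.09 FPKM in IC-F, and at 15.3, 0.98 and 0.75 FPKM in NC-M, against 0.19, 0.36 and 0.30 FPKM in IC-F. Most of their difference came from the ovary-type pair, since the change of NC-M against IC-F was log2 1.83 for nudt2 and 1.58 for wdr1, and neither was called (adjusted p = 0.382 and 0.261, limma). They stood at 0.27, 0.05 and 0 FPKM in NC-F and 23.0, 29.3 and 22.4 FPKM in IC-M for nudt2 (difference log2 6.38 ± 1.67 SE, limma adjusted p = 0.00867), and at 0.87, 1.26 and 0.55 FPKM in NC-F and 15.9, 13.7 and 13.6 FPKM in IC-M for wdr1 (difference log2 4.62 ± 1.11 SE, limma adjusted p = 0.00542).

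Among the largest negative differences, ccnb2 stood at 938, 884 and 838 FPKM in NC-F and 581, 551 and 782 FPKM in IC-M (difference log2 −4.41 ± 0.99 SE, limma adjusted p = 0.00364), so that its fall was not shared by the ovary-type pair. Si_ch211-153b23.5 stood at 6.38, 2.25 and 38.2 FPKM in NC-M, against 116, 111 and 108 FPKM in IC-F, with 11.9, 14.5 and 14.9 FPKM in NC-F and 10.9, 12.2 and 4.96 FPKM in IC-M (difference log2 −4.11 ± 0.85 SE, limma adjusted p = 0.00211). For nek10, a kinase gene of cilia, the ovary-type pair moved the other way, with 15.3, 20.5 and 15.7 FPKM in NC-F and 0.13, 0.44 and 0.15 FPKM in IC-M, and 2.45, 1.81 and 11.4 FPKM in NC-M and 13.3, 11.7 and 13.3 FPKM in IC-F (difference log2 −5.35 ± 0.53 SE, limma adjusted p = 8.36e-06). Arhgap39, a regulator of small GTPases, overlapped between NC-M and IC-F, at 13.2, 5.25 and 14.8 FPKM in NC-M, against 10.6, 9.82 and 10.1 FPKM in IC-F, and stood at 27.1, 24.8 and 23.7 FPKM in NC-F and 0.32, 0.21 and 0.45 FPKM in IC-M (difference log2 −4.30 ± 0.37 SE, limma adjusted p = 2.21e-06). Dr1, a repressor of transcription, stood at 6.07, 7.03 and 11.7 FPKM in NC-M, against 15.7, 17.4 and 23.2 FPKM in IC-F, with 10.9, 12.2 and 20.9 FPKM in NC-F and 0, 6.22 and 0.03 FPKM in IC-M (difference log2 −4.07 ± 0.79 SE, limma adjusted p = 0.00147). The IC-M libraries disagree for dr1, and as for ND1, an exact 0 can be a failed estimate, so this difference is uncertain.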

How the data were processed

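Gonad RNA was sequenced in 18 libraries, with an input of 0.4 ug per library per the labels' protocols. FPKM were deposited by the authors with 2 decimals for 43106 entries. Aligner, counting tool and genome build were not given in the sources used here. An MSTRG number was the only name of 5484 entries. Of the other 37622, 34962 matched RefSeq symbols of assembly ASM1485139v1.

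The deposited FPKM were put on a log2 scale, log2(FPKM + 1), and tested with limma 3.58.1 in R 4.3.3 (lmFit, eBayes with trend, Benjamini-Hochberg). The fit held the 9 libraries labelled NC-M, IC-F and HT-F, the last to share the estimate of the spread, and genes with 1 FPKM in at least 3 of them. The difference from the ovary-type pair was fitted on all 18 libraries. Tables and plots were made in Python 3.11.15 (pandas 2.3.3, matplotlib 3.10.9). The fitting script was tested on simulated data. Fold changes on this scale understate the change of low genes. Counts of list members leave out genes that reached the filter only with the libraries of the group in which they were higher, and the genes that chose the libraries, a choice made after the data were seen.

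The libraries, lists and rules were chosen with earlier results of these data known. Genes were named by rule: the 12 largest rises and 12 largest falls of at least log2 1 among named entries whose groups did not overlap and whose higher mean reached 5 FPKM, up to 3 called members per list, taken by smallest adjusted p (where none was called, the 1 with the smallest p), and the 5 largest differences in each direction. A few genes that the rule names are not reported here. Other named list members are examples chosen after their values were seen. Alternatives changed the pseudocount, filter, scaling, weights, libraries fitted and replicate block, or left out each library in turn.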

Additional observations from a re-analysis of the deposited data

Results flagged for a closer look

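The 28-day change differed between testis-type and ovary-type gonads for 8919 genes by the test of the difference itself (limma adjusted p under 0.05, all 18 libraries). Among the genes named for this contrast, the difference on the log2 scale was 6.38 for nudt2, 6.10 for tgm8, 4.80 for rab11fip5a, 4.62 for wdr1 and 4.50 for ccnt1. It was −5.35 for nek10, −4.41 for ccnb2, −4.30 for arhgap39, −4.11 for si_ch211-153b23.5 and −4.07 for dr1. For nudt2, wdr1, rab11fip5a, nek10, arhgap39 and dr1 most of the difference came from the ovary-type pair. That of dr1 is uncertain, because its IC-M libraries stood at 0, 6.22 and 0.03 FPKM and an exact 0 can be a failed estimate. The change of NC-M against IC-F itself was log2 −1.48 for nek10, 0.007 for arhgap39 and −1.12 for dr1. Leaving out NC-M 1, NC-M 2 or NC-M 3 ended none of the 10 calls. The groups of 3 libraries are too small for a test of single outlying libraries.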

How the results depend on the processing

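The number of genes called in NC-M against IC-F was 7869. It was 14449 with array weights, 4490 with a change of at least log2 1 required, and 3787 to 12149 when 1 library was left out (4121, 3787 and 3797 without IC-F 1, 2 and 3, and 6201, 4985 and 12149 without NC-M 1, 2 and 3). The cause was not tested. Other pseudocounts, filters, scalings and sets of libraries gave 6114 to 11168. Equal library totals gave 2642 rises and 4217 falls (38.5% higher). Of 12149 genes called without NC-M 3, 7605 were also called with it, all 7605 in the same direction. The difference from the ovary-type pair was called for 7130 to 13259 genes under alternatives that kept all libraries and a call rule without a size limit, 6016 with a change of at least log2 1, and 7288 to 12488 when 1 library was left out.

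The labels do not tell whether replicate numbers pair the libraries, and deviations within groups of 3 libraries cannot decide it. Same-numbered NC-M and IC-F libraries deviated from their group means with correlations of −0.05 to 0.03, and 1 of 6 libraries correlated best with its own number. With the replicate block 6050 genes were called, and 8400 for the difference.

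No gene called in the report changed direction under an alternative that gave it a value. Among uncalled ones, values ran from log2 −1.14 to 0.19 for dmc1, −0.42 to 0.61 for amh, −0.64 to 0.27 for star, −0.086 to 0.29 for dazl and −0.26 to 0.32 for piwil1 when 1 library was left out. Median-of-ratios scaling gave −0.041 for dazl and −0.077 for piwil1, equal totals −0.028 and −0.064, and array weights −0.12 for piwil1. Depth is unknown, so no counting error could be given.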
